A study of Homo sapiens with 6 samples.

Results

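The 10 genes described here encode receptor tyrosine kinases of the PDGF, FGF, MET and KIT group, namely *PDGFRA*, *PDGFRB*, *KIT*, *KDR*, *FGFR1*, *FGFR2*, *FGFR3*, *FGFR4*, *MET* and *AXL*. Each was found by its exact symbol in the platform annotation and each had 1 probe set with that symbol alone, so that 10 of the 18404 genes tested were taken. Expression was measured on Affymetrix Human Gene ST arrays in MUG-Chor1, a line grown from a chordoma of the sacrococcygeal spine, a bone tumor that resembles the notochord. Large physaliferous cells, filled with vacuoles, were compared with small non-vacuolated cells, in 3 pools of 20 cells each (large pools 2, 3 and 4, small pools 5, 6 and 7). The methods describe pools picked in quadruplicate, whereas the series holds 3 per phenotype. Both phenotypes were picked by micromanipulation from the same line, and neither the labels nor the methods give a drug or genetic change for either. The cells thus stand for 1 tumor, and the sources used here do not tell if pools were taken from different cultures. The p-values then measure no more than how these pools varied, which may be technical.

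Receptor tyrosine kinases span the plasma membrane, bind a ligand outside the cell and phosphorylate tyrosines on themselves and on docking proteins inside it. From there the signal runs through RAS and the MAP kinases, through PI3 kinase and AKT, and through STAT factors. PDGFRA, PDGFRB and KIT are related kinases that are blocked by imatinib, and PDGFRB has been studied as a drug target in chordoma. FGF receptors pattern the mesoderm in the embryo, and MET, the receptor of hepatocyte growth factor, drives scattering and migration of epithelial cells. The arrays measured messenger RNA, and neither receptor protein nor its phosphorylation was measured.

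Values are log2 expression after robust multi-array averaging. Signal above log2(100), that is 6.64, was taken as expressed and is called the expression floor. This floor lies close to the array medians, so it is a working limit and being above it does not prove expression. Array medians lay between 6.64 and 6.76, a little lower in large than in small pools, and the median log2 fold change (large minus small) over all genes was -0.11 as deposited, -0.07 once the arrays were quantile normalized and -0.03 once each was centred on its own median. The notochord and chordoma markers *TBXT*, *KRT8*, *KRT18*, *KRT19*, *CD24* and *SOX9* were above the floor in 6 of 6 pools, and their summed level ran from 13.44 to 13.50 in large and from 13.38 to 13.47 in small pools. The overlap of these sums depended on scaling. It held after quantile normalization, whereas centring on array medians gave 13.50 to 13.54 in large and 13.33 to 13.44 in small pools. Signals of different genes come from different probe sets and are not ranked against each other here.

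*MET*, *FGFR1*, *FGFR3* and *KDR* were above the expression floor in all 6 pools, that is 4 of the 10 receptors against 43.4% of all genes. *PDGFRB* was above it in 5 pools. *PDGFRA*, *KIT*, *FGFR2*, *FGFR4* and *AXL* were above it in 0 pools, that is 5 of the 10 receptors against 30.4% of all genes. Large and small cells thus had the same receptors above the floor, apart from *PDGFRB*, which was above it in 2 of 3 large and 3 of 3 small pools. With a floor of log2(64) 7 receptors were above it in every pool, so the line between both classes depends on the floor.

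None of the receptors passed the test between the phenotypes by limma. The thresholds were an adjusted p under 0.05 together with a change of more than 1 on the log2 scale. In this test, run without a filter, 0 of 10 receptors and 0% of all genes were called (smallest adjusted p over all genes 0.143). The thresholds are those of the methods, which were applied there after genes without expression or without change across samples had been removed. With that filter, and with pools described as quadruplicate, the paper reports genes that differed between the phenotypes. The lack of calls here is thus not a result of the paper, and the step behind this difference was not tested. Before adjustment, 0 receptors were higher and 0 lower with p under 0.05, where 4.33% of all genes were higher and 10.5% lower. This excess of lower genes was smaller after quantile normalization (4.53% higher and 5.90% lower) and turned after centring on array medians (6.56% higher and 3.90% lower). The adjusted p of the receptors ran from 0.389 for *FGFR3* to 0.826 for *KIT*. For all 10 receptors the 95% confidence interval of the log2 fold change lay between -1 and 1, as it did for 82.5% of all genes, so a difference of the size asked for by the methods lay outside the interval of each receptor. For the receptors below the floor this holds for the array signal, which near background follows the amount of RNA poorly.

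**Figure D1:**
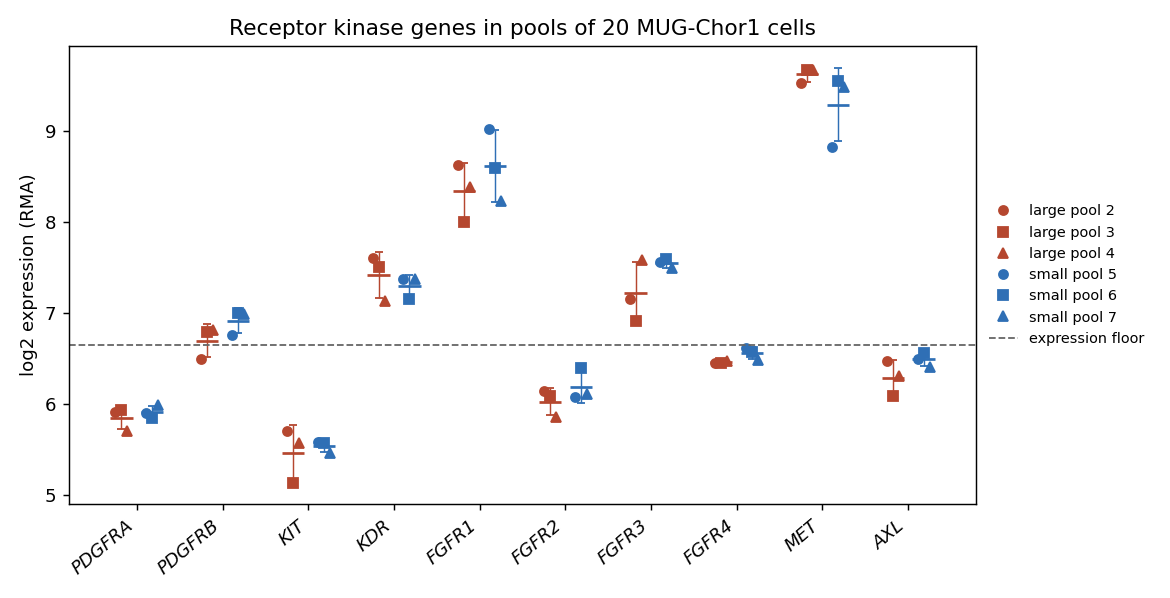
Log2 expression (vertical axis) of the 10 receptor genes by pool, for 3 pools of large and 3 of small cells. Each point is a pool, with the group mean as a horizontal line and the SD as a bar, and the floor of 6.64 is dashed. *MET*, *FGFR1*, *FGFR3* and *KDR* lie above the floor in all 6 pools, and large and small pools overlap for every gene except *FGFR4*.

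*MET*, the receptor of hepatocyte growth factor, had the most positive difference of the receptors. Its log2 expression was 9.52, 9.67 and 9.66 in large pools 2, 3 and 4 and 8.82, 9.54 and 9.48 in small pools 5, 6 and 7. The large pools lay close together, and small pool 5 stood below the other pools, which spanned 9.48 to 9.67. Large cells had a mean of 9.62 ± 0.08 (SD, n = 3) and small cells one of 9.28 ± 0.40 (SD, n = 3). They differed by 0.33 on the log2 scale (standard error 0.21, 95% confidence interval -0.17 to 0.84, adjusted p = 0.425 from limma). The interval reaches from 0.888-fold to 1.79-fold. Without small pool 5 the log2 fold change of *MET* was 0.10, so most of the difference came from this pool.

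*FGFR1*, which binds many FGFs and is common in mesenchymal cells, had 8.62, 8.0 and 8.38 in large pools 2, 3 and 4 and 9.02, 8.59 and 8.23 in small pools 5, 6 and 7. The groups overlapped, with the lowest value in large pool 3 and the highest in small pool 5. The log2 fold change was -0.28 (standard error 0.25, 95% confidence interval -0.89 to 0.33, adjusted p = 0.556 from limma), the widest interval among the receptors, reaching from 0.541-fold to 1.26-fold. It was -0.07 without small pool 5, -0.11 without large pool 3, -0.42 without large pool 2 and -0.47 without small pool 7.

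*FGFR3*, the receptor that restrains growth of cartilage, had 7.15, 6.91 and 7.58 in large pools 2, 3 and 4. In small pools 5, 6 and 7 it had 7.55, 7.59 and 7.49. Large pools 2 and 3 were thus below every small pool, whereas large pool 4 was within their range. The difference was -0.33 (standard error 0.18, 95% confidence interval -0.76 to 0.11, adjusted p = 0.389 from limma), with the smallest p of the receptors. Without large pool 4 it was -0.51 (adjusted p = 0.383 from limma, within 0.383 to 0.616 over its alternatives, with an unadjusted p under 0.05), and without large pool 3 it was -0.17.

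*FGFR2*, an FGF receptor of epithelia, and *FGFR4*, best known from liver, were below the floor in every pool. *FGFR2* had 6.14, 6.08 and 5.85 in large pools 2, 3 and 4 and 6.07, 6.39 and 6.11 in small pools 5, 6 and 7, and the groups overlapped. Its log2 fold change was -0.16 (standard error 0.14, 95% confidence interval -0.49 to 0.17, adjusted p = 0.527 from limma), and it was -0.078 without large pool 4 and -0.064 without small pool 6. *FGFR4* had 6.45, 6.45 and 6.47 in the large and 6.61, 6.57 and 6.49 in the small pools. As deposited, it was the 1 receptor whose groups did not overlap, with every large pool below every small pool. This was the case for 21.6% of all genes, while every large pool was above every small pool for 0 receptors and for 5.48% of all genes. The log2 fold change of *FGFR4* was -0.10 (standard error 0.088, 95% confidence interval -0.32 to 0.11, adjusted p = 0.551 from limma), close to the median of all genes. After quantile normalization it was -0.02 and the groups overlapped. Centring on array medians also gave -0.02 and groups that overlapped.

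*PDGFRB*, the PDGF receptor of pericytes and fibroblasts, lay at the floor. Its log2 expression was 6.49, 6.79 and 6.81 in large pools 2, 3 and 4 and 6.76, 7.0 and 6.98 in small pools 5, 6 and 7. Large pool 2 was the lowest, and small pool 5 fell among the large pools. The log2 fold change was -0.22 (standard error 0.13, 95% confidence interval -0.54 to 0.10, adjusted p = 0.416 from limma), and -0.12 without large pool 2. Of 8 markers of fibroblasts and pericytes, *COL1A1*, *COL1A2*, *COL3A1* and *THY1* were above the floor in all 6 pools, while *DCN* and *RGS5* were above it in 0 pools. Their summed level ran from 10.32 to 10.77 in large and from 10.92 to 11.13 in small pools, with 7 of 8 lower in large cells, beside 66.4% of all genes. The brightest marker, *THY1* (9.27 to 10.08 in large, 10.07 to 10.21 in small pools), weighs most in this sum. The sums were also apart after quantile normalization and after centring on array medians. Every large pool was below every small pool for 21.6% of all genes. The widest differences among these markers were those of *LUM* (log2 fold change -1.11, with 8.88 in small pool 7 and 5.91 to 7.22 in the other pools) and *ACTA2* (-0.72), and neither passed. The part of these markers in the values of *PDGFRB* was not tested. Each pool was picked by hand as 20 cells of 1 phenotype from a cultured line, and within a pool fewer cells that express a gene and less of its RNA per cell cannot be told apart.

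*PDGFRA*, *KIT* and *KDR* follow each other on chromosome 4 with no other protein-coding gene between them in RefSeq (GRCh38.p14). *PDGFRA*, the second PDGF receptor, had 5.91, 5.93 and 5.70 in large pools 2, 3 and 4 and 5.90, 5.85 and 5.99 in small pools 5, 6 and 7. *KIT*, the receptor of stem cell factor, had 5.70, 5.13 and 5.57 in the large and 5.59, 5.57 and 5.46 in the small pools. Both were below the floor throughout, and their groups overlapped. The log2 fold change was -0.06 (95% confidence interval -0.32 to 0.20, adjusted p = 0.763 from limma) for *PDGFRA* and -0.07 (95% confidence interval -0.48 to 0.33, adjusted p = 0.826 from limma) for *KIT*, and both signs turned after centring each array, to 0.02 and 0.01. Of 4 mast cell and blood cell markers measured, *CPA3* and *PTPRC* were above the floor in 0 pools, *CD34* in 1 and *CD14* in 4. Their summed level ran from 7.90 to 8.02 in large and from 8.02 to 8.13 in small pools.

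*KDR*, the main VEGF receptor of endothelium, was the 1 gene of these neighbors above the floor. It had 7.61, 7.50 and 7.13 in large pools 2, 3 and 4. In small pools 5, 6 and 7 it had 7.37, 7.16 and 7.37. Large pool 4 was the lowest of all pools and large pools 2 and 3 were the highest. Their means differed by 0.12 (standard error 0.15, 95% confidence interval -0.26 to 0.49, adjusted p = 0.691 from limma), with a difference of 0.02 without large pool 2, 0.07 without large pool 3, 0.05 without small pool 6 and 0.26 without large pool 4. The endothelial markers *PECAM1*, *CDH5*, *TEK*, *VWF* and *TIE1* were above the floor in 0 pools, whereas *CLDN5* and *EGFL7* were above it in all 6. The summed level of these 7 markers was lower in every large pool (9.27 to 9.45) than in every small pool (9.55 to 9.60), as it was after centring on array medians (9.33 to 9.49 against 9.52 to 9.55). Every large pool was below every small pool for 21.6% of all genes, and the array medians were ordered in the same way. The part of these markers in the values of *KDR* was not tested. On the flanks of these receptors, *GSX2* (log2 fold change -0.18), *TMEM165* (0.27) and *CLOCK* (0.21) were above the floor in all pools, and *LNX1* and *CHIC2* in 0 pools. None of these was called (adjusted p of 0.372 to 0.703 from limma), and *SRD5A3* was not analysed here.

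*AXL*, a receptor of the TAM family that binds GAS6, was below the floor in all pools. It had 6.47, 6.09 and 6.30 in large pools 2, 3 and 4 and 6.49, 6.56 and 6.41 in small pools 5, 6 and 7. Large pool 2 lay within the range of the small pools and the other large pools below it. Large and small cells differed by -0.20 (standard error 0.13, 95% confidence interval -0.51 to 0.11, adjusted p = 0.427 from limma), and by -0.10 without large pool 3.

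**Figure D2:**
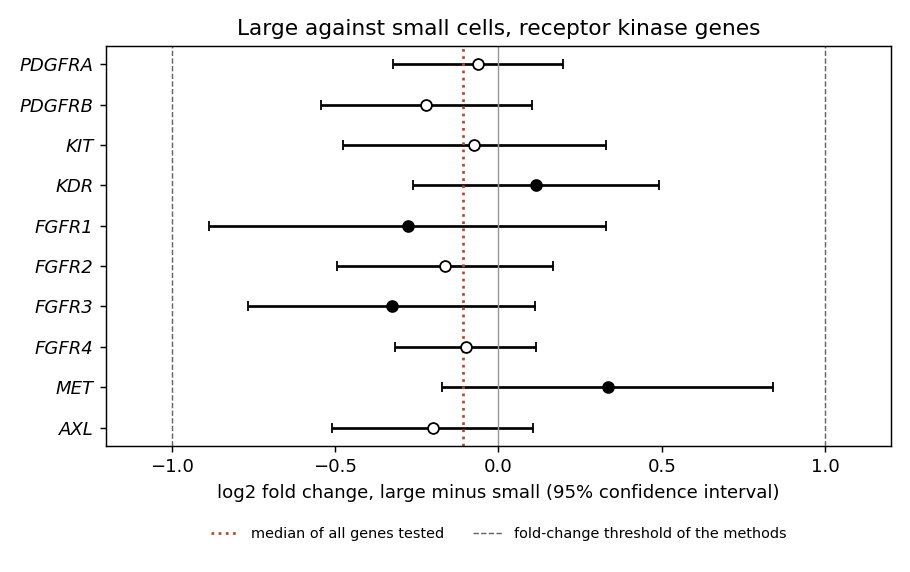
Difference between large and small cells for the 10 receptor genes (horizontal axis, log2 fold change) with the 95% confidence interval from limma. Filled points are genes above the expression floor in all 6 pools, the dotted line is the median of all genes tested (-0.11) and the dashed lines are at -1 and 1; every interval crosses 0 and lies between the dashed lines.

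Taking the receptors as a list, 8 of 10 had a lower mean in large cells, with a median log2 fold change of -0.13. Of all genes 66.4% were lower, with a median of -0.11, so the list sat where genes in general sat. After centring each array on its median 6 of 10 receptors were lower, against 54.4% of all genes. *MET* and *KDR* were higher in large cells under each of the 3 scalings. In 5 receptors, *KIT*, *FGFR1*, *FGFR3*, *FGFR4* and *AXL*, the lowest of the 6 values was in large pool 3. This pool held the lowest value for 29.8% of all genes, more than any other pool, and limma gave it the lowest array weight (0.699, against 0.977 to 1.21 for the other pools).

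Over the 6 pools *FGFR1* had the widest range of the receptors that were above the floor in at least 3 pools. Of 10907 other such genes, those with the most similar pattern were *GTPBP6* (Pearson r = 0.9993 over 6 pools), *FMN1* (0.9954) and *GGT5* (0.9912). *FMN1*, an actin-nucleating formin, ran from 7.32 in large pool 3 to 8.33 in small pool 5. These pools also held the extremes of *FGFR1*, which follows from choosing *FMN1* by its likeness. Large pool 3 held the lowest value for 29.8% of all genes and small pool 5 the highest for 28.4%. The values compared come from the same 6 arrays and share their scaling, and the likeness is given as a description.

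The ligands of the receptors were measured on the same arrays. Those named were chosen after their values had been seen, apart from *PDGFD*, *FGF16*, *VEGFB*, *PLAT* and *SPINT2*. Among the PDGFs, *PDGFC* was above the floor in all 6 pools (7.57 to 7.86 in large, 7.61 to 8.65 in small), *PDGFA* in 4, *PDGFB* in 2 and *PDGFD* in 0. *PDGFD* had the smallest p of these 4 ligands (log2 fold change -0.12, adjusted p = 0.543 from limma), and its difference was -0.046 without small pool 7 and -0.034 after centring on array medians. Of 22 FGF genes, *FGF2*, *FGF17* and *FGF23* were above the floor in all pools and 11 were above it in 0 pools. *FGF2*, basic FGF, had 7.84 to 8.13 in large and 8.04 to 8.55 in small cells. The 1 FGF with an unadjusted p under 0.05 was *FGF16* (log2 fold change -0.42, adjusted p = 0.336 from limma), which was below the floor in all pools.

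*HGF*, the ligand of MET, was above the floor in 0 pools (4.87 to 5.26), as were *KITLG*, the ligand of KIT, and *GAS6*, the ligand of AXL. *VEGFA*, the ligand of KDR, was above it in all 6 pools, with 8.48, 8.56 and 8.54 in large pools 2, 3 and 4 and 8.41, 8.28 and 7.95 in small pools 5, 6 and 7. All large pools thus lay above all small pools, as they did for 5.48% of all genes. The log2 fold change was 0.31 (95% confidence interval -0.03 to 0.66) and did not pass. *VEGFB* was the 1 of the 8 ligands of this list with an unadjusted p under 0.05 (log2 fold change -0.44, adjusted p = 0.330 from limma). *PROS1* and *PGF* were above the floor in 6 pools as well. Among the 8 genes that activate ligands or inhibit their activation, 2 had an unadjusted p under 0.05. Both were lower in large cells, beside 10.5% of all genes at this p. They were the plasminogen activator *PLAT* (-0.28), which was below the floor, and *SPINT2*, an inhibitor of HGF activation (-0.39, and -0.26 without large pool 3).

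Among 12 related receptors and co-receptors, 3 had an unadjusted p under 0.05, each lower in large cells, beside 10.5% of all genes. They were *MST1R*, the closest relative of *MET*, *CSF1R*, a relative of *KIT*, and *FLT4*, the VEGF receptor of lymphatic vessels. *MST1R* had 5.74, 5.76 and 5.75 in the large and 6.44, 6.08 and 6.24 in the small pools, below the floor throughout, and differed by -0.50 (adjusted p = 0.323 from limma). *CSF1R* had a log2 fold change of -0.33 and was above the floor in 1 pool, and *FLT4* had -0.32 and was above it in 4. *FLT1*, the other VEGF receptor next to KDR and FLT4, was chosen after its values had been seen. It was above the floor in all 6 pools, with 9.37, 9.64 and 9.73 in large and 9.46, 8.97 and 9.09 in small pools, a log2 fold change of 0.41 (95% confidence interval -0.0046 to 0.82). Its groups overlapped by 1 pool on each side.

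**Figure D3:**
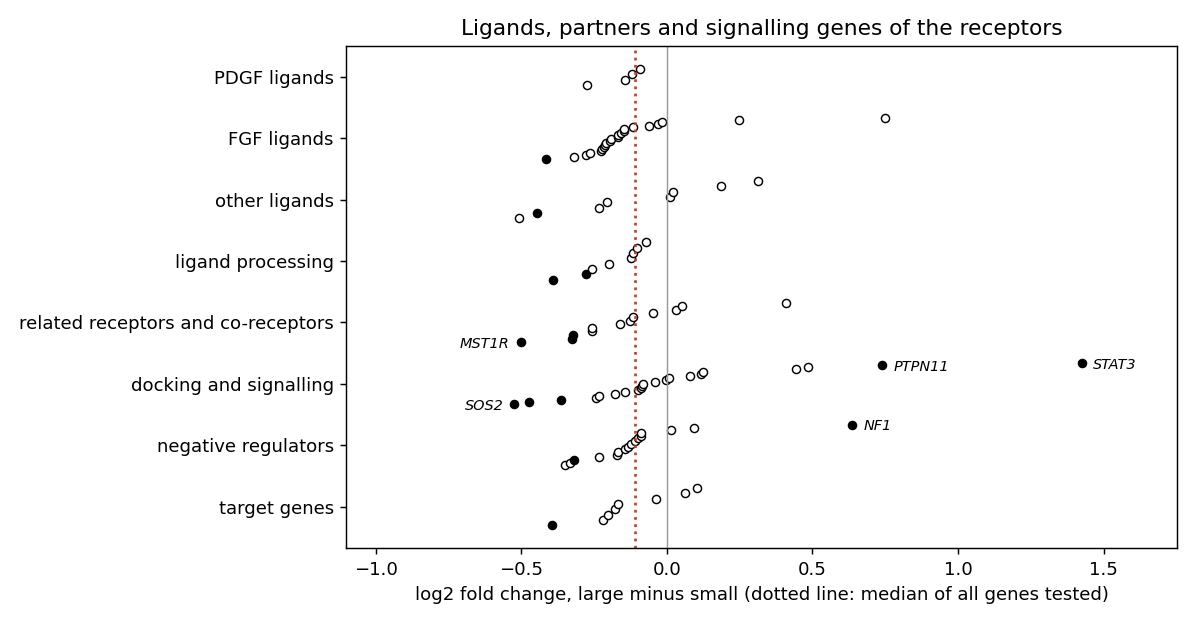
Difference between large and small cells (horizontal axis, log2 fold change) for the 99 genes measured in 8 lists round the receptors; each point is a gene, filled points have an unadjusted p under 0.05 from limma, and the dotted line is the median of all genes (-0.11). Most points lie left of 0, as for genes in general, and *STAT3* (1.43) lies farthest to the right.

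Downstream of the receptors, 19 of 21 measured docking and signaling genes were above the floor in all 6 pools. An unadjusted p under 0.05 was found for 2 genes that were higher in large cells and 3 that were lower. Of all genes 4.33% were higher and 10.5% lower at this p. In this list 0 genes passed the adjustment over all genes. *STAT3*, a transcription factor phosphorylated after cytokine and growth factor signals, had 9.28, 9.55 and 9.57 in large pools 2, 3 and 4 and 7.49, 8.35 and 8.29 in small pools 5, 6 and 7. All large pools lay above all small pools, as for 5.48% of all genes, and small pool 5 was the lowest. The log2 fold change was 1.43 (standard error 0.25, 95% confidence interval 0.82 to 2.03, adjusted p = 0.323 from limma), and without small pool 5 it was 1.15. The interval is not adjusted for the number of genes. Genes of unlike unadjusted p can share an adjusted p. *FLT4* also had 0.323, with an unadjusted p of 0.025 from limma, against 0.0012 for *STAT3*.

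*PTPN11*, the phosphatase SHP2 that links receptors to RAS, had 10.58, 10.13 and 10.47 in the large and 9.37, 9.87 and 9.71 in the small pools. The groups did not overlap, with every large pool above every small pool, as for 5.48% of all genes. The log2 fold change was 0.74 (standard error 0.18, 95% confidence interval 0.30 to 1.18, adjusted p = 0.323 from limma). The lower ones were *SOS2*, an exchange factor of RAS, with -0.52, the FGF receptor docking protein *FRS3* with -0.36 and the MAP kinase kinase *MAP2K1* with -0.47. *MAP2K1* was named after its values had been seen. *SOS1*, *GRB2*, *SHC1* and *GAB1* were likewise chosen after their values had been seen. *SOS1*, the other exchange factor, had 9.71, 9.57 and 10.02 in large and 8.60, 9.69 and 9.55 in small pools, so that both groups overlapped, and *GRB2*, *SHC1* and *GAB1* were above the floor in all pools without a difference that passed.

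Of 16 measured negative regulators, 2 had an unadjusted p under 0.05. *NF1* was higher and *IL17RD* lower in large cells, beside 4.33% and 10.5% of all genes. *NF1*, which switches RAS off, had 8.36, 8.02 and 8.54 in the large and 7.79, 7.62 and 7.59 in the small pools, which is a difference of 0.64 (standard error 0.16, adjusted p = 0.323 from limma). A second probe set with the symbol *NF1*, not kept because its mean over the 6 arrays was lower, had 9.13, 6.57 and 7.87 in the large and 4.92, 5.97 and 5.84 in the small pools. It had the same sign but a log2 fold change of 2.28, so that the size of the *NF1* difference is uncertain (1.46 for the mean of both probe sets). *IL17RD*, an inhibitor of FGF signaling, had -0.32 below the floor. Among the feedback inhibitors that are induced by receptor signals, *SPRY2* varied widely, from 7.56 to 8.78 in large and from 6.83 to 8.85 in small pools, and *DUSP6* was above the floor in 0 pools (both chosen after their values had been seen). Of 8 target genes, *EGR1* was lower at an unadjusted p under 0.05 (log2 fold change -0.39, adjusted p = 0.333 from limma, and -0.26 without large pool 3), while *ETV1*, *ETV5*, *CCND1* and *PHLDA1* were above the floor in all pools with log2 fold changes between -0.20 and 0.10 (named after their values had been seen).

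**Figure D4:**
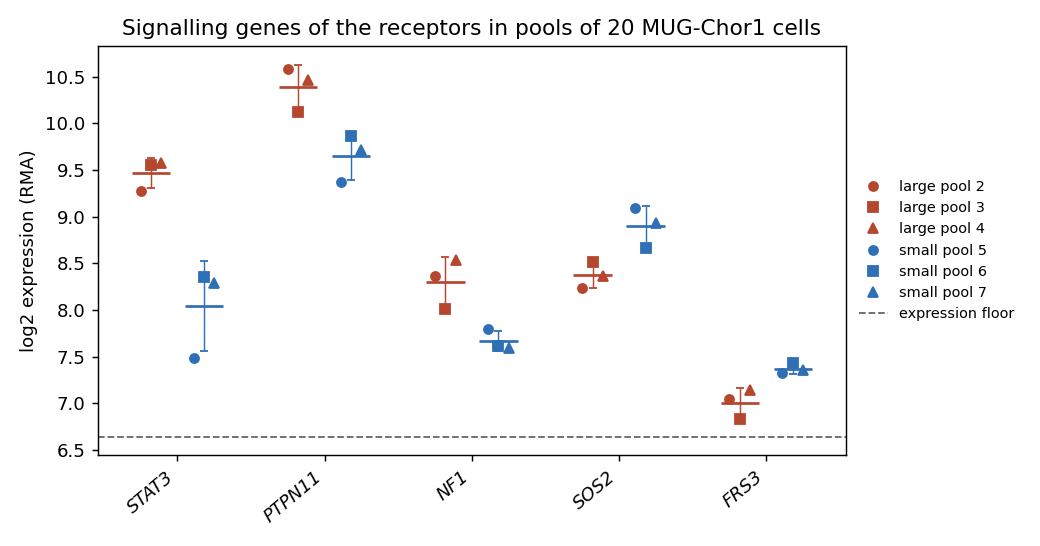
Log2 expression (vertical axis) of the signaling genes *STAT3*, *PTPN11*, *NF1*, *SOS2* and *FRS3* by pool. Each point is a pool, with the group mean as a horizontal line and the SD as a bar (n = 3), and the floor is dashed. Large pools lie above small pools for *STAT3*, *PTPN11* and *NF1* and below them for *SOS2* and *FRS3*. Of all genes 5.48% lie above and 21.6% below in this way.

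In all, of the 99 pathway genes measured an unadjusted p under 0.05 was found for 3 that were higher and 12 that were lower in large cells, beside 4.33% and 10.5% of all genes, and 0 passed the adjustment over all genes. The split depends on the scaling, since 3 were higher and 8 lower after quantile normalization, and 5 were higher and 5 lower after centring on array medians. As deposited, their median log2 fold change was -0.14, beside -0.11 for all genes. Every large pool lay above every small pool for 4 of the 99 and below for 23, beside 5.48% and 21.6% of all genes. The other 15 of the 114 genes listed were not analysed here. With 3 pools in each group the smallest p of a two-sided exact permutation test is 0.1, so single genes were judged by limma alone.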

How the data were processed

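Messenger RNA of 6 pools of 20 cells, 3 large and 3 small, had been amplified and hybridized to Affymetrix arrays. The deposited values are log2 expression for 32321 probe sets, normalized by the authors with robust multi-array averaging (Affymetrix Expression Console is named in the submitters' processing notes); no source used here gives the genome build. Gene names came from the platform annotation, in which 19158 probe sets have 1 symbol, 1388 several and 11775 none. For each of 18404 genes the brightest probe set by mean over the 6 arrays was kept, without a filter on low values.

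Large and small pools were compared with limma 3.58.1 in R 4.3.3 (lmFit, eBayes), with Benjamini-Hochberg adjustment over all genes. A call needed an adjusted p under 0.05 and a log2 fold change beyond 1 in either direction. The number of arrays limits the precision. The test was tried on simulated data for this comparison over 18404 genes. It called 67 of 100 planted log2 changes of 1.5 and 89 of 100 of 2.5, with 1 false call. These changes were planted together in arrays with independent normal noise, and many true changes ease the adjustment. The rates therefore need not hold for the real arrays, where 0 genes were called without a filter. There *STAT3*, with a log2 fold change of 1.43, had an adjusted p of 0.323 from limma. Summed levels are log2 of summed linear values. RefSeq (GRCh38.p14) served only for the order of neighboring genes.

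The receptors and the gene lists were chosen with earlier results of these data known. Named besides the receptors were, from each pathway list, up to 4 genes with an unadjusted p under 0.05, smallest first, or else the gene with the smallest p, together with the 3 genes most like *FGFR1* and the neighbors on chromosome 4. Other names are marked as chosen after their values had been seen. Alternatives were quantile normalization, centring on array medians, filters on level and variation, an intensity trend, array weights, other probe set choices, other floors and leaving out each pool.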

Additional observations from a re-analysis of the deposited data

How the results depend on the processing

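No receptor was called under any alternative that kept it, and their adjusted p ran from 0.383 to 0.983 in limma. Centring each array on its median turned the log2 fold change of *PDGFRA* to 0.0209 and of *KIT* to 0.01. With each pool left out in turn, *PDGFRA* ran from -0.10 to 0.0092 (positive without large pool 4) and *KIT* from -0.19 to 0.095 (positive without large pool 3). The number of receptors lower at an unadjusted p under 0.05 ran from 0 to 1 (*FGFR3*, without large pool 4). The number whose groups did not overlap ran from 1 to 3 when pools were left out. Groups of fewer pools separate more easily, and the share of all genes was not counted with a pool left out. The number of receptors without overlap was 0 after quantile normalization and 0 with the filter on the floor, which left 5 receptors. After centring on array medians it was 1, but this was *MET* in place of *FGFR4*, with every large pool above every small pool. The share of all genes was not counted there either. The filter on the floor and an interquartile range above 0.5 left 2062 genes and 0 receptors, so it gave no receptor value, and 1 pathway gene at an unadjusted p under 0.05. This number was 15 with all pools and ran from 8 (without small pool 6) to 15 when pools were left out. A higher floor placed 3 receptors above it in all pools, and a floor of log2(64) placed 7 above it. None of the alternatives turned the sign of a pathway gene named by the rule. No paired analysis was possible because the groups share no replicate numbers in the labels. Signal near background limits *PDGFRA*, *KIT*, *FGFR2*, *FGFR4* and *AXL*, and 3 pools a group limit all receptors.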
